A study of Mus musculus with 18 samples.

Results

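Stem cells of the gastric unit have been named in mice by many marker genes, and 10 of those that have been reported were examined here across all cell clusters of the adult stomach: Lgr5, Lgr4, Tnfrsf19, Lrig1, Runx1, Bmi1, Prom1, Cd44, Stmn1 and Iqgap3. They are 10 of the 31201 gene names counted in the study, and they were taken for their published role, with earlier results of these counts known. All 10 passed the filter on low counts in every comparison. The question asked of each was in which cell type it was found, and whether the dividing cells of the isthmus stood apart from the pit, neck, chief and parietal cells beside them.

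The cells came from the stomach of 10-week-old wild-type C57BL/6J male mice without treatment. Dataset 1 held corpus and antrum gastric units from 2 pools of 3 mice each (pool 1 and pool 2), sorted as ToPro3(-) cells by the labels, although the study's methods name propidium iodide as the dye for dead cells in this dataset. Dataset 2 held corpus gastric units from 2 further pools of 3 mice (K and T), sorted as Hoechst33342(+) ToPro3(-) cells. In both datasets the 2 pools were prepared by different operators. Each well of a 384-well plate received 1 cell for Quartz-Seq2, in which every transcript molecule is tagged with a unique molecular identifier (UMI) and counted once. Because the mice of a pool cannot be told apart, the pool was the sample (n = 2 in each dataset). In dataset 1 both regions went into the same sort, and corpus or antrum is therefore a name given to clusters and not to single cells.

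The corpus of the stomach is lined by tubular units in which dividing isthmus cells lie between the mucous pit cells above and the mucous neck cells, acid-secreting parietal cells and enzyme-secreting chief cells below. Wnt ligands and the R-spondins that strengthen their signal keep stem cells of the intestine and the antrum dividing, and Lgr5 is both a receptor for R-spondins and a target gene of the pathway. In the corpus, dividing isthmus cells, chief cells and scattered cells of the base have each been described as stem cells with the help of different markers, among them the genes described here.

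The authors kept 491 cells in 15 clusters of dataset 1 and 3993 cells in 20 clusters of dataset 2, each with at least 2500 detected genes. The plates held 3054370 to 5346035 UMIs in dataset 1 and 10540256 to 12850942 in dataset 2, and the median kept cell had 38757 and 31020 UMIs. Cluster names follow the authors where the names are given, and clusters with "-like" were named from marker genes that included none of the 10 genes. The authors named the clusters of dataset 2 from known marker genes, and the paper counts Stmn1 and Iqgap3 among isthmus progenitor markers. Whether Stmn1 and Iqgap3 served in the naming could not be settled, so their high isthmus levels may be fixed in part by it. In dataset 2 the types were mature pit (121 cells), pre-pit (291), isthmus (1285, clusters 3, 5, 6, 9 and 11), neck (1247, clusters 0, 2, 7 and 12), chief (180) and parietal cells (702). Their median UMIs per cell ran from 22530 in neck to 47647 in parietal cells. UMIs of the parietal gene Atp4b were found in most cells of the neck, chief and isthmus clusters too. Levels are given as CPM (counts per 1e6 UMIs), from the total UMIs of each type in each pool, with the SD over the 2 pools. Fold changes are on the log2 scale, with a standard error (SE), from edgeR's quasi-likelihood test on sums scaled by the TMM method.

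The 10 genes did not share a pattern over the 6 epithelial types of dataset 2. Stmn1, Iqgap3 and Cd44 were at their highest in isthmus cells, Lgr5 and Tnfrsf19 in chief cells, Prom1 in neck cells, Lrig1 and Bmi1 in parietal cells, and Lgr4 in pre-pit cells. Runx1 differed little among neck, isthmus and pit cells and was lower in chief and parietal cells. Against neck cells, 8 of the 10 genes differed in isthmus cells, 4 higher and 4 lower, where 50.7% of all 13894 genes tested differed, 24.3% higher and 26.4% lower. The median log2 fold change of the 10 was -0.06 beside -0.06 over all genes.

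**Figure D1:**
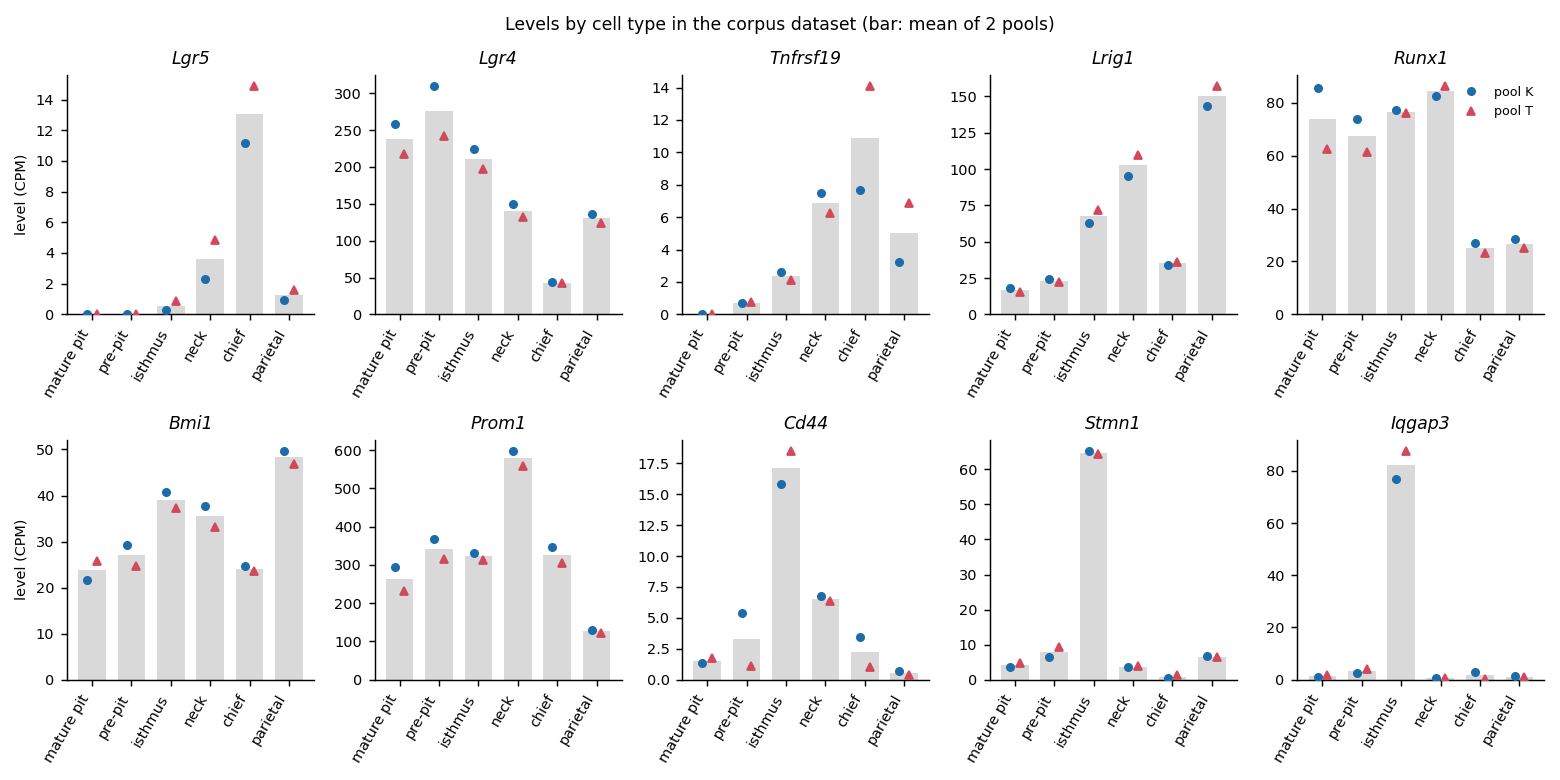
Level of each gene (vertical axis, CPM, each from 0) in the 6 epithelial cell types of dataset 2. Bars are the mean of 2 pools, circles pool K and triangles pool T; Stmn1 and Iqgap3 stand out in the isthmus at 64.8 and 82.2 CPM, while Lgr5 has its highest bar in chief cells at 13.03 CPM.

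Against chief cells 8 of 10 differed, 5 higher and 3 lower, beside 55.4% of all genes (29.5% higher, 25.9% lower), and the median of the 10 was 0.39 beside 0.06 over all genes. Against pit cells (the mean of mature and pre-pit cells) 7 differed, 6 higher and 1 lower, beside 40.9% of all genes (22.5% higher, 18.4% lower), with a median of 2.09 or, with Lgr5 set at its lower bound, 0.92, beside 0.04. Against parietal cells 9 differed, 5 higher and 4 lower, beside 71.8% of all genes (36.7% higher, 35.2% lower), with a median of 0.52 beside 0.05. Chief cells differed from neck cells in 5 of the genes, 2 higher and 3 lower, beside 38.5% of all genes (18.6% higher, 19.9% lower), with a median of -0.36 beside -0.07. Between mature pit and pre-pit cells edgeR called 0 of the 10 genes, where 10.4% of all genes differed (6.52% higher, 3.84% lower). Prom1 passed there with the pool as a block, lower in mature pit cells by 0.25 (adjusted p = 0.0408). Of the 10, 2 had an unadjusted p under 0.05 and DESeq2 called 0, and their median was -0.29, or -0.16 with Tnfrsf19 at its bound, beside -0.02. Since the authors derived the clusters from these counts, a p-value here describes how far apart 2 clusters lie.

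The scaling mattered in several comparisons, and the cause was not tested. Without TMM scaling the median of all genes moved by 0.88 in isthmus against chief cells, by -0.82 in chief against neck cells, by 0.50 in isthmus against parietal cells and by 0.28 in isthmus against pit cells. The share of called genes that were higher in isthmus went from 53.2% to 87.0% against chief cells, from 54.9% to 84.0% against pit cells and from 51.0% to 72.8% against parietal cells. In chief against neck cells it went from 48.3% to 7.30%. Plain CPM levels and TMM-scaled fold changes can therefore differ, and single genes whose call turned on it are named below.

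**Figure D2:**
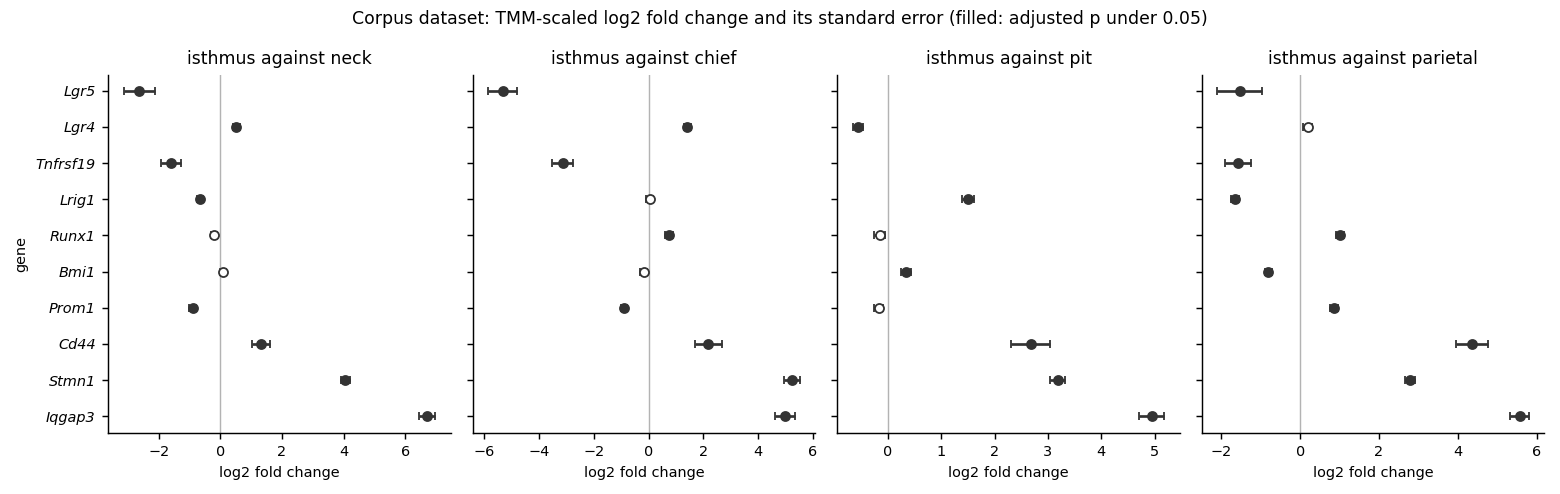
TMM-scaled log2 fold change (horizontal axis) of each gene in isthmus cells of dataset 2 against neck, chief, pit and parietal cells; bars are standard errors, and filled circles passed an adjusted p of 0.05. Lgr5 and Tnfrsf19 have no point against pit cells because mature pit cells held 0 of their UMIs; Stmn1 and Iqgap3 lie to the right of 0 in all 4 panels.

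Lgr5 (chromosome 10, 115286216 to 115423685, minus strand, GRCm39), a receptor for R-spondins that marks stem cells of the intestine and antrum, had its highest level among the 6 types in chief cells. Chief cells had 11.2 CPM in pool K and 14.9 CPM in pool T (13.03 ± 2.63). Neck cells had 2.34 and 4.85 CPM, parietal cells 0.946 and 1.56 CPM and isthmus cells 0.258 and 0.880 CPM. The pools of chief, neck, parietal and isthmus cells did not overlap in this order. No UMI of Lgr5 was found in the 412 pit cells, which allows a share of cells with a UMI of up to 0.728% and a level of up to 0.205 CPM.

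Most cells of every type held no Lgr5 UMI. A UMI was found in 46 of 180 chief cells (25.6%, exact 95% interval 19.4 to 32.6%), in 44 neck cells (3.53%, 2.58 to 4.71%) and in 16 of 1285 isthmus cells (1.25%, 0.713 to 2.01%). Parietal cells, assumed here to be a type that lacks the gene, had a UMI in 33 cells (4.70%) at a median depth of 47647 UMIs, against 37426 in isthmus and 22530 in neck cells. With every cell thinned to 10000 UMIs the shares were 10.4 ± 1.34% in chief, 2.16 ± 0.594% in neck, 1.29 ± 0.458% in parietal and 0.473 ± 0.277% in isthmus cells. The isthmus share did not exceed that of parietal cells, so it is not given as expression above background, although pit cells held no UMI at all and 1 isthmus cell held 11. Intervals and limits cover counting error only.

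The 16 isthmus cells with Lgr5 held 32 of its UMIs, and 10 of them had a single UMI. Mki67, a marker of dividing cells, was found in 12 of them, and 9 of the 16 were in clusters 5 and 6. Of all 1285 isthmus cells, clusters 5 and 6 held 279 and 270. By the authors' cell cycle call, the thinned Mki67 share was 94.8% in 624 G2M, 41.9% in 489 S and 19.1% in 172 G1 cells. The 12 cells with Mki67 were counted at full depth, so they cannot be set against these thinned shares. Whether isthmus cells with Lgr5 differ from the others was not tested. The 5 cells of cluster 11 held 18 of the 32 UMIs, and 1 of these cells held 11. On 1 plate of pool T the isthmus level was 3.23 CPM, where the other plates of the pool lay between 0 and 0.827 CPM; without that plate the pool T level was 0.334 CPM.

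In dataset 2 Lgr5 was 2.63 log2 units lower in isthmus than in neck cells (SE 0.50, adjusted p = 0.00103) and 5.32 lower than in chief cells (SE 0.52, adjusted p = 3.49e-06). Against parietal cells it was 1.53 lower (SE 0.57, adjusted p = 0.0297), a call that was lost without TMM scaling at an adjusted p of 0.108. Against pit cells the adjusted p was 0.071, and no fold is given because pit cells were at 0; it passed with the pool as a block, under DESeq2, without the filter and without TMM scaling. Chief cells were 2.69 log2 units above neck cells (SE 0.45, adjusted p = 0.000567).

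Within the neck, the Lgr5 level was highest in cluster 12, the neck cluster with the most Cblif, the gene of intrinsic factor. Cluster 12 had 14.9 and 17.2 CPM in pools K and T, with 56 of the 102 neck UMIs in 24 of 173 cells (13.9%). Clusters 2 and 7 had 0.183 and 0.402 CPM and 1.06 and 1.74 CPM, and cluster 0 had 0 and 4.49 CPM. In pool T the larger cluster 0 held 37 UMIs in 12 of 336 cells, 17 of them in 1 cell. Cluster 12 held 27 UMIs in 10 of 74 cells of that pool. Cluster 12 lay above chief cells in each pool, its lower pool being level with the higher chief pool (14.89 and 14.88 CPM), and this difference was not tested. Against the other neck clusters, cluster 12 was 4.19 log2 units higher for Lgr5 (SE 0.60, adjusted p = 5.63e-05), one of 3 of the 10 genes called higher and 0 called lower, where 10.3% of all 12922 genes tested were called (5.10% higher, 5.18% lower), and the median of the 10 was 0.17, or 0.29 with Iqgap3 at its bound, beside -0.01 over all genes. Without TMM scaling the median of all genes moved there by -0.23, and the share of calls that were higher went from 49.6% to 11.4%. The chief markers Cblif, Pgc, Pga5 and Bhlha15 summed to 2.17e5 and 2.10e5 CPM in cluster 12, to 1.37e5 and 1.39e5 in the other neck clusters and to 1.96e5 and 1.92e5 in chief cells, and their part in the Lgr5 difference was not tested.

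Outside the 6 types, Lgr5 reached 22.1 and 20.7 CPM in cluster 15, from 11 UMIs in 5 of 32 cells. In this cluster the 5 tuft markers summed to 4947 and 4612 CPM and the 6 stromal markers to 2602 and 0 CPM, so that in pool T no stromal marker was found. The D cells of cluster 16 had 6.32 and 3.94 CPM. The ECL cells, leukocytes and endothelial cells had no Lgr5 UMI.

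Lgr4 (chromosome 2, 109747839 to 109844609, plus strand), the broadly expressed relative of Lgr5 that also binds R-spondins, was highest in pit cells and lowest in chief cells. Pre-pit cells had 310 and 241 CPM, mature pit cells 258 and 218 CPM, isthmus cells 224 and 197 CPM, neck cells 149 and 132 CPM and parietal cells 136 and 124 CPM. Chief cells had 43.5 and 42.0 CPM. Mature pit cells overlapped pre-pit cells, isthmus cells overlapped mature pit cells and parietal cells overlapped neck cells, while chief cells lay below all others. With cells thinned to 10000 UMIs, 91.8% of pre-pit, 84.7% of isthmus, 73.6% of neck and 34.1% of chief cells had a UMI.

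Isthmus cells were above neck cells in Lgr4 by 0.52 log2 units (SE 0.11, adjusted p = 0.00125) and above chief cells by 1.42 (SE 0.13, adjusted p = 5.62e-07). They were below pit cells by 0.56 (SE 0.10, adjusted p = 0.00037). Against parietal cells the log2 fold change was 0.19 with an adjusted p of 0.126, which passed with the pool as a block at 0.0175. Without TMM scaling this value was 0.69 with an adjusted p of 0.000113. In chief against neck cells Lgr4 was lower by 0.90 (SE 0.13, adjusted p = 9.54e-05). Over the 14 clusters of the 6 epithelial types of dataset 2, the levels of Lgr4 and Lgr5 had a Pearson r of -0.80 on the log2 scale, given as a description of clusters that share 2 pools.

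Tnfrsf19 (chromosome 14, 61201283 to 61284366, minus strand), also called Troy, a receptor of the tumor necrosis factor family and a Wnt target that has been used to trace chief cells, had low levels with its highest mean in chief cells. Chief cells had 7.70 and 14.1 CPM, neck cells 7.50 and 6.27 CPM, parietal cells 3.21 and 6.87 CPM and isthmus cells 2.62 and 2.13 CPM. Pre-pit cells had 0.704 and 0.759 CPM from 7 UMIs, and the 121 mature pit cells had 0 UMIs, which allows up to 0.591 CPM. Chief cells lay above neck cells in both pools, narrowly so in pool K, and parietal and neck cells overlapped.

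The thinned shares were 8.76% of chief, 5.92% of neck, 3.23% of parietal and 2.43% of isthmus cells, so the isthmus share again did not exceed that of parietal cells. Parietal cluster 8 itself had 5.22 and 11.4 CPM, which overlapped chief cells. Parietal cells thus give no background level for Tnfrsf19, and this comparison cannot place the isthmus share against background. Tnfrsf19 was 1.60 log2 units lower in isthmus than in neck cells (SE 0.33, adjusted p = 0.00141), 3.13 lower than in chief cells (SE 0.39, adjusted p = 1.71e-05) and 1.57 lower than in parietal cells (SE 0.33, adjusted p = 0.00095). It was higher in isthmus than in pit cells (adjusted p = 0.00901). Chief cells were above neck cells by 1.53 (SE 0.36, adjusted p = 0.00501), or by 0.71 with an adjusted p of 0.0945 without TMM scaling.

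Like Lgr5, Tnfrsf19 was higher in neck cluster 12 than in the other neck clusters. It had 23.1 and 12.1 CPM there, from 64 UMIs in 40 of the 173 cells, against 3.26 and 7.04 CPM in cluster 0, 2.38 and 1.21 CPM in cluster 2 and 10.6 and 4.63 CPM in cluster 7. The difference was 2.198 log2 units (SE 0.39, adjusted p = 0.000545), although cluster 7 of pool K came close to cluster 12 of pool T. The levels of Lgr5 and Tnfrsf19 over the 14 epithelial clusters had a Pearson r of 0.78.

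Cells with a Lgr5 UMI were also set beside the other cells of their type, which is a description because the cells were chosen by a count and deeper cells are chosen more often. In the neck of dataset 2, the 44 cells with Lgr5 had Tnfrsf19 at 63.4 and 22.4 CPM in pools K and T, against 6.00 and 5.52 CPM in the 1203 cells without. Axin2, a general Wnt target, had 29.0 and 28.7 CPM against 5.08 and 6.87 CPM. Within cluster 12 the cells with Lgr5 had Tnfrsf19 at 72.1 and 21.8 CPM against 14.5 and 10.5 CPM. In chief cells the values lay closer together, with Tnfrsf19 at 10.6 and 17.6 CPM against 6.89 and 12.52 CPM. Mki67 had 2.64 and 9.58 CPM in the neck cells with Lgr5 and 4.80 and 6.72 CPM in those without, so the pools overlapped.

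**Figure D3:**
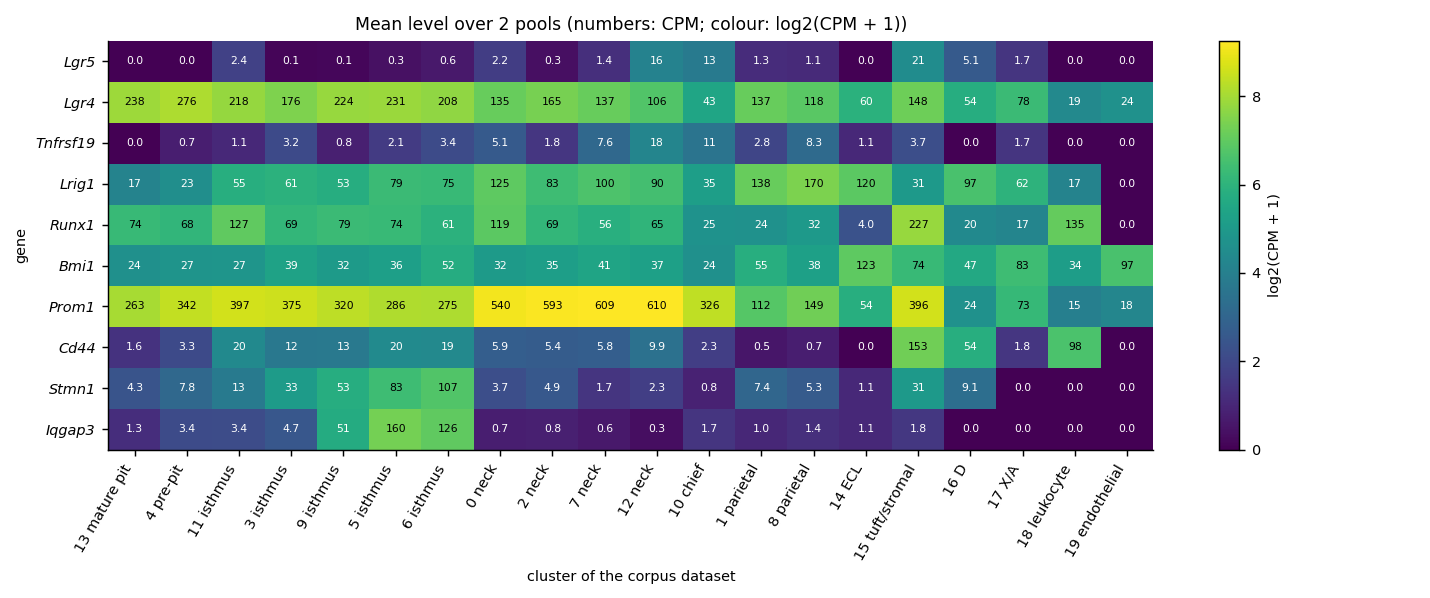
Mean level over 2 pools of each gene (rows) in the 20 clusters of dataset 2 (columns, by cell type); the printed numbers are CPM and the colour is log2(CPM + 1). Lgr5 and Tnfrsf19 share their highest columns among the clusters of the 6 epithelial types, neck cluster 12 and chief cluster 10, while Lgr5 is higher still in the tuft and stromal cluster 15, and Iqgap3 is highest in isthmus clusters 5 and 6.

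Lrig1 (chromosome 6, 94581510 to 94677242, minus strand), a membrane protein that restrains epidermal growth factor receptors and marks slow-cycling stem cells in several epithelia, was highest in parietal cells. These had 144 and 157 CPM, neck cells 95.6 and 110 CPM and isthmus cells 63.1 and 71.9 CPM. Chief cells had 34.3 and 36.3 CPM, pre-pit cells 24.2 and 22.0 CPM and mature pit cells 18.5 and 15.1 CPM. No 2 neighbours in this order overlapped. The isthmus cells were thus in the middle of the order, 0.67 log2 units below neck cells (SE 0.10, adjusted p = 7.07e-05) and 1.66 below parietal cells (SE 0.10, adjusted p = 2.14e-09).

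Lrig1 was 1.51 log2 units higher in isthmus than in pit cells (SE 0.11, adjusted p = 1.23e-07). Against chief cells the TMM-scaled value was 0.05 with an adjusted p of 0.767, while plain CPM of isthmus cells was above that of chief cells in both pools, and without TMM scaling the value was 0.93 with an adjusted p of 7.72e-06. Chief cells were below neck cells by 0.72 (SE 0.12, adjusted p = 0.000419). Thinned to 10000 UMIs, 70.7% of parietal, 59.6% of neck, 45.0% of isthmus and 29.6% of chief cells had a UMI.

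Runx1 (chromosome 16, 92398354 to 92623037, minus strand), a transcription factor of blood formation whose enhancer has been used to label isthmus stem cells, overlapped between isthmus and mature pit cells and was lowest in chief and parietal cells. Neck cells had 82.4 and 86.3 CPM, isthmus cells 77.1 and 76.0 CPM, mature pit cells 85.4 and 62.6 CPM and pre-pit cells 73.9 and 61.3 CPM. Parietal cells had 28.4 and 25.1 CPM and chief cells 26.96 and 23.2 CPM, below all of them. Isthmus against neck gave -0.21 (SE 0.10, adjusted p = 0.107) and isthmus against pit -0.15 with an adjusted p of 0.229. The first passed with each plate as the unit, at 0.00739, where the plates of a pool share its 3 mice.

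The difference for Runx1 was against the cells of the base and the parietal cells. Isthmus cells were above chief cells by 0.74 log2 units (SE 0.14, adjusted p = 0.000507) and above parietal cells by 1.01 (SE 0.11, adjusted p = 1.19e-06), and chief cells were below neck cells by 0.95 (SE 0.14, adjusted p = 0.000125). Among single clusters, isthmus cluster 11 had 140 and 115 CPM and neck cluster 0 had 135 and 103 CPM, above the other clusters of their types. The tuft and stromal cluster had 239 and 216 CPM and the leukocytes 104 and 166.1 CPM.

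Bmi1 (chromosome 2, 18681292 to 18691441, plus strand), a subunit of the Polycomb repressive complex that sustains self-renewal, had means from 23.7 to 48.3 CPM over the 6 types. Parietal cells had 49.6 and 46.9 CPM, isthmus cells 40.9 and 37.3 CPM, neck cells 37.7 and 33.2 CPM and pre-pit cells 29.3 and 24.7 CPM. Chief cells had 24.7 and 23.5 CPM and mature pit cells 21.7 and 25.8 CPM. Isthmus and neck cells overlapped, as did chief and mature pit cells. The isthmus did not pass the test against neck cells (0.08, SE 0.09, adjusted p = 0.519), was above pit cells by 0.34 (SE 0.10, adjusted p = 0.0117) and was below parietal cells by 0.81 (SE 0.09, adjusted p = 1.93e-06).

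Against chief cells, Bmi1 gave -0.18 with an adjusted p of 0.245 with TMM scaling and 0.70 with an adjusted p of 0.000205 without it. The highest Bmi1 levels of dataset 2 were outside these types. ECL cells had 115 and 131 CPM, X/A cells 74.3 and 92.2 CPM and endothelial cells 72.0 and 122 CPM.

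Prom1 (chromosome 5, 44150962 to 44259395, minus strand), the CD133 membrane glycoprotein of cell protrusions, was highest in neck cells. They had 597 and 559 CPM, against 368 and 316 CPM in pre-pit cells, 347 and 305 CPM in chief cells and 332 and 313 CPM in isthmus cells. Mature pit cells had 295 and 231 CPM and parietal cells 130 and 123 CPM. Pre-pit, chief and isthmus cells overlapped, and neck cells lay above and parietal cells below all others. All 4 neck clusters were high, from 542 and 538 CPM in cluster 0 to 626 and 595 CPM in cluster 12.

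Prom1 was 0.91 log2 units lower in isthmus than in neck cells (SE 0.10, adjusted p = 7.02e-06) and 0.85 higher than in parietal cells (SE 0.10, adjusted p = 4.47e-06). Against pit cells the value was -0.17 with an adjusted p of 0.145, which passed at 0.0363 with the pool as a block. The TMM-scaled value against chief cells was -0.90 (SE 0.10, adjusted p = 6.00e-06), but plain CPM overlapped between these types and the value without TMM scaling was -0.02 with an adjusted p of 0.910. Cluster 12 was above the other neck clusters by 0.30 (SE 0.08, adjusted p = 0.0124), a call lost without TMM scaling at 0.600. Almost every neck cell carried the gene, with a thinned share of 99.2%, and 67.0% of parietal cells did.

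Cd44 (chromosome 2, 102641486 to 102732010, minus strand), a receptor for hyaluronan on many stem, immune and connective tissue cells, was highest in the isthmus among the 6 epithelial types of the corpus. Isthmus cells had 15.8 and 18.5 CPM (914 UMIs in 456 cells, 35.5%), neck cells 6.74 and 6.35 CPM, pre-pit cells 5.40 and 1.14 CPM and chief cells 3.47 and 1.04 CPM. Mature pit cells had 1.39 and 1.72 CPM and parietal cells 0.736 and 0.389 CPM. Neck cells lay below isthmus cells and above the rest, while pre-pit, chief and mature pit cells overlapped. The thinned shares kept the order, with 13.1% of isthmus and 5.81% of neck cells.

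The isthmus was above neck cells in Cd44 by 1.33 log2 units (SE 0.29, adjusted p = 0.00192), above chief cells by 2.18 (SE 0.50, adjusted p = 0.00219), above pit cells by 2.67 (SE 0.37, adjusted p = 5.64e-05) and above parietal cells by 4.37 (SE 0.41, adjusted p = 3.12e-07). Clusters 5 and 6 had 20.9 and 19.96 CPM and 21.0 and 17.7 CPM, and clusters 3 and 9 had 11.4 and 12.45 CPM and 12.2 and 12.8 CPM. In cluster 11 the pools differed, with 7.92 and 32.0 CPM, and 3 cells held 55.6% of its 142 UMIs. In pool T of cluster 11 the 4 cells with Lgr5 had 594 CPM and the 105 cells without had 13.5 CPM. Cluster 15, which has tuft markers in both pools and stromal markers in pool K, was higher than the isthmus with 143 and 161.7 CPM, and the leukocytes had 130 and 66.4 CPM. Of the 6 stromal markers all 6 had a UMI in isthmus and neck cells, with sums of 0.987 and 0.339 CPM and of 1.24 and 1.997 CPM, and 4 of 5 leukocyte markers had one, with 8.28 and 9.85 CPM in isthmus and 4.61 and 6.35 CPM in neck cells. Their part in the Cd44 difference was not tested.

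Stmn1 (chromosome 4, 134195021 to 134201882, plus strand) encodes stathmin, which destabilizes microtubules and is abundant in dividing cells. Isthmus cells had 65.2 and 64.4 CPM, with 3419 UMIs in 963 of 1285 cells (74.9%). Pre-pit cells had 6.34 and 9.30 CPM, parietal cells 6.83 and 6.35 CPM, mature pit cells 3.69 and 4.81 CPM and neck cells 3.58 and 3.85 CPM. Chief cells had 0.385 and 1.31 CPM from 6 UMIs. Only the isthmus stood apart by much, while parietal overlapped pre-pit cells and neck overlapped mature pit cells. The thinned share was 40.9% in isthmus and 7.44% in pre-pit cells, beside 5.97% in parietal cells.

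Stmn1 was higher in isthmus cells than in neck cells by 4.06 log2 units (SE 0.15, adjusted p = 1.96e-10), than in chief cells by 5.22 (SE 0.30, adjusted p = 6.05e-09), than in pit cells by 3.18 (SE 0.15, adjusted p = 1.94e-09) and than in parietal cells by 2.79 (SE 0.14, adjusted p = 3.54e-10). Among the isthmus clusters it ranged from 109 and 105 CPM in cluster 6 and 86.9 and 78.4 CPM in cluster 5 to 12.1 and 14.3 CPM in cluster 11. Even cluster 11 was above the other 5 epithelial types of dataset 2 in both pools.

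Iqgap3 (chromosome 3, 87989278 to 88028356, plus strand), a scaffold protein of the cytoskeleton and of Ras signaling found in dividing cells, had its highest level in the isthmus by a wide margin. Isthmus cells had 76.9 and 87.5 CPM, with 4377 UMIs in 735 cells (57.2%). Pre-pit cells had 2.58 and 4.17 CPM, chief cells 3.08 and 0.261 CPM, mature pit cells 0.923 and 1.72 CPM, parietal cells 1.37 and 1.04 CPM and neck cells 0.688 and 0.784 CPM. The other types overlapped one another in part, and none came near the isthmus. The thinned share was 38.0% of isthmus cells, 2.94% of pre-pit cells and 1.00% of parietal cells.

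Iqgap3 was higher in isthmus than in neck cells by 6.72 log2 units (SE 0.26, adjusted p = 2.57e-10), than in chief cells by 4.98 (SE 0.36, adjusted p = 5.48e-08), than in pit cells by 4.95 (SE 0.23, adjusted p = 2.22e-09) and than in parietal cells by 5.57 (SE 0.24, adjusted p = 7.80e-11). By plate the isthmus level lay between 70.5 and 84.5 CPM in pool K and between 79.8 and 99.0 CPM in pool T. The isthmus clusters were far apart in Iqgap3. Cluster 5 had 158.5 and 161 CPM, cluster 6 had 122 and 130 CPM and cluster 9 had 44.5 and 57.7 CPM, against 5.06 and 4.27 CPM in cluster 3 and 1.67 and 5.21 CPM in cluster 11.

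Over the 14 epithelial clusters of dataset 2, the genes whose levels were most like those of Iqgap3 were Kif14, Cenpe and Nusap1, each with a Pearson r of 0.98 on the log2(CPM + 1) scale among the genes with a mean of at least 5 CPM. Kif14 and Cenpe encode kinesin motors of mitosis and Nusap1 a protein of the mitotic spindle. Because these 4 genes moved together over clusters, the 250 bases before their starts are shown, from RefSeq promoters of GRCm38.p6, all on the plus strand. Matches to TTTGAA (the cell cycle genes homology region), CCAAT (the CCAAT box) and GCGGGAA (a word of E2F type) on either strand are in capitals.
Iqgap3, chr3:88081801-88082050: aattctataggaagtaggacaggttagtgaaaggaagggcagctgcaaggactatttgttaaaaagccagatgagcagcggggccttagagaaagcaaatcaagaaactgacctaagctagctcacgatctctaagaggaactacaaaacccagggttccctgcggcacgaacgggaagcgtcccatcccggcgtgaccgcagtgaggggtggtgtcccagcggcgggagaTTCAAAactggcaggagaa
Kif14, chr1:136467598-136467847: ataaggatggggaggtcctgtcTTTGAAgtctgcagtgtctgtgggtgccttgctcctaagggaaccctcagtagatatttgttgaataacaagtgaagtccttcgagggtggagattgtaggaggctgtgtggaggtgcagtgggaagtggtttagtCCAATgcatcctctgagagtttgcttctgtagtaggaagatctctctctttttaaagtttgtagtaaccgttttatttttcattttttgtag
Cenpe, chr3:135212313-135212562: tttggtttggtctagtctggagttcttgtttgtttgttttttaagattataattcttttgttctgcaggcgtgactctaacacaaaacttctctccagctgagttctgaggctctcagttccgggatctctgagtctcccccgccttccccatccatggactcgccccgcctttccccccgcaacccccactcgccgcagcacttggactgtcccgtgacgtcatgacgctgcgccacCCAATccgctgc
Nusap1, chr2:119618048-119618297: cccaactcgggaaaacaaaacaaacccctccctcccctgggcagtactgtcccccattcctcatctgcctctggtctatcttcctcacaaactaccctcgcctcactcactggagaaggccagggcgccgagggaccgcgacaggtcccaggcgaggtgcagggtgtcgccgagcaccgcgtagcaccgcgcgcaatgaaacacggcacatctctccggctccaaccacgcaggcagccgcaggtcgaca
The Iqgap3 promoter held 1 match to TTTGAA, on the opposite strand, 14 to 19 bases before the start. Kif14 held TTTGAA 223 to 228 bases and CCAAT 88 to 92 bases before its start, Cenpe held CCAAT 8 to 12 bases before its start, and Nusap1 held none. Of 32851 mouse promoters of this length, 16.0% held TTTGAA, 33.8% CCAAT, 3.82% GCGGGAA and 5.55% both TTTGAA and CCAAT. A match is a description of the letters in this window. Of the 10 genes, 8 had an entry in the promoter table.

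Within the isthmus, clusters 5 and 6 were compared with clusters 3, 9 and 11, and 6 of the 10 genes differed, 4 higher and 2 lower, beside 31.2% of 12922 genes (17.3% higher, 13.9% lower), with a median of 0.41 beside -0.02 over all genes. The paper states that cell cycle phase set the isthmus clusters apart and that clusters 5 and 6 expressed Foxm1. Higher levels of genes of dividing cells there are therefore fixed in part by this split. Iqgap3 was higher by 3.84 log2 units (SE 0.14, adjusted p = 3.70e-17) and Stmn1 by 1.70 (SE 0.08, adjusted p = 2.63e-14). Smaller differences were found for Lrig1, higher by 0.45 (SE 0.07, adjusted p = 4.29e-05), and Bmi1, higher by 0.41 (SE 0.08, adjusted p = 0.000196). Runx1 was lower by 0.41 (SE 0.08, adjusted p = 0.000531) and Prom1 by 0.38 (SE 0.06, adjusted p = 3.55e-05). Lgr5 with 0.32 (adjusted p = 0.815), Tnfrsf19 with 0.77 (adjusted p = 0.200), Cd44 with 0.41 (adjusted p = 0.184) and Lgr4 did not pass. Cd44 passed in edgeR without the filter (adjusted p = 0.0165) and with the plate as the unit (0.0428).

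The authors' annotation also calls a cell cycle phase for each cell from its expression. Of the isthmus cells 172 were called G1, 489 S and 624 G2M. The levels by phase are a description, since the call comes from the same counts. Stmn1 had 11.5 and 16.4 CPM in G1, 49.5 and 54.9 CPM in S and 86.6 and 80.3 CPM in G2M. Iqgap3 had 2.21 and 6.56 CPM, 23.7 and 29.6 CPM and 130 and 138 CPM. Both were higher in this order in each pool, with no overlap between phases.

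Runx1 and Prom1 had their highest isthmus levels in cells called G1. Runx1 had 137 and 114 CPM in G1, 66.4 and 68.9 CPM in S and 73.9 and 71.7 CPM in G2M. Prom1 had 392 and 436 CPM, 356 and 329 CPM and 303 and 276 CPM. Lgr5 and Cd44 in G1 differed between the pools, with 0 and 4.65 CPM of Lgr5 and 8.39 and 32.0 CPM of Cd44, where 3 G1 cells of cluster 11 in pool T held 11, 3 and 2 UMIs of Lgr5 and 21, 3 and 49 of Cd44. In G2M cells Cd44 had 18.1 and 18.4 CPM.

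**Figure D4:**
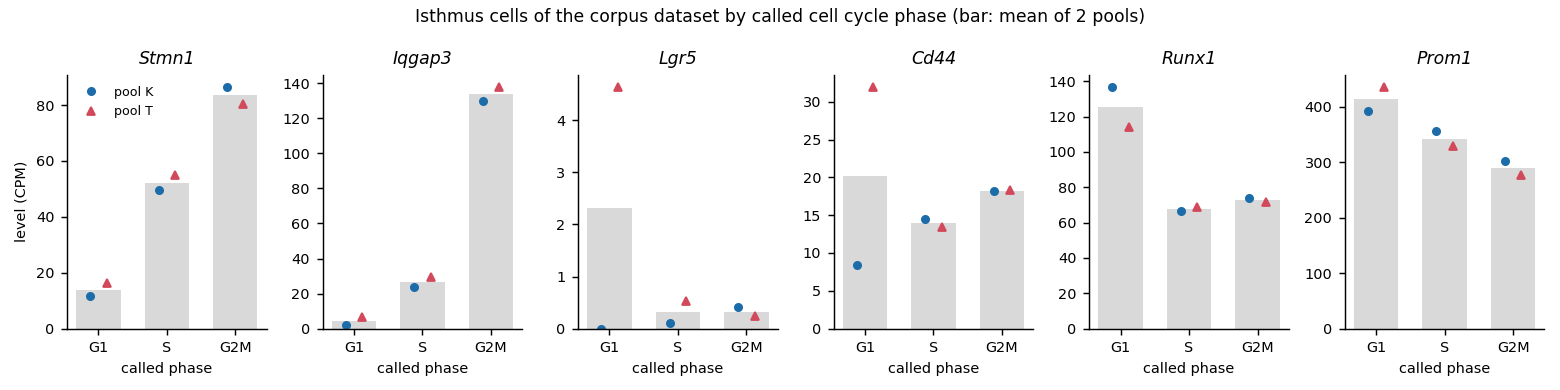
Level (vertical axis, CPM, each from 0) of 6 of the genes in isthmus cells of dataset 2 by the phase called in the authors' annotation (G1, S, G2M). Bars are the mean of 2 pools, circles pool K and triangles pool T; Stmn1 and Iqgap3 step up to G2M, Runx1 is highest in G1, and the pools part for Lgr5 and Cd44 in G1.

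Dataset 1, with fewer cells and with the antrum, again had Iqgap3 and Stmn1 highest in isthmus-like cells and Lgr5 and Tnfrsf19 low there. Its isthmus-like cluster (53 cells) was set against neck (45 cells) and corpus pit cells (26 mature and 46 pre-pit cells). Against neck cells 7 of the 10 genes differed, 2 higher and 5 lower, beside 29.3% of 10229 genes (16.2% higher, 13.1% lower), with a median of -0.81 beside 0.04. Against corpus pit cells 6 differed, 5 higher and 1 lower, beside 40.7% of genes (22.0% higher, 18.8% lower), with a median of 2.15 or, with Lgr5 and Stmn1 at their bounds, 1.15, beside 0.06. Without TMM scaling the median of all genes in the second comparison moved by 0.34 and the share of calls that were higher went from 53.9% to 80.9%.

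Iqgap3 had 98.0 and 93.8 CPM in isthmus-like cells of pools 1 and 2 and 0 and 4.44 CPM in neck cells, all 4 UMIs of which were in 1 cell. It was higher by 5.12 log2 units than in neck (SE 0.51, adjusted p = 8.30e-07) and by 5.92 than in corpus pit cells (SE 0.43, adjusted p = 1.39e-08). Stmn1 had 27.7 and 36.0 CPM against 3.22 and 16.6 CPM in neck cells, where 3 cells held 14 of the 17 UMIs. It was higher than in neck by 1.54 (SE 0.49, adjusted p = 0.0249, but 0.249 under DESeq2) and at least 7.84-fold higher than in corpus pit cells (adjusted p = 2.08e-05).

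Lrig1 and Prom1 kept their places as well. Lrig1 had 182 and 180 CPM in parietal, 169.3 and 173 CPM in neck and 59.8 and 61.9 CPM in isthmus-like cells, and was 1.497 lower in isthmus-like than in neck cells (SE 0.16, adjusted p = 1.08e-06). Prom1 had 619 and 521 CPM in neck and 242 and 187 CPM in isthmus-like cells, a difference of -1.42 (SE 0.18, adjusted p = 1.04e-05). Lgr4 had 240 and 238 CPM in isthmus-like and 52.2 and 48.4 CPM in chief-like cells. Runx1 with 62.8 and 76.7 CPM in isthmus-like and 95.1 and 68.8 CPM in neck cells, and Bmi1 with 29.9 and 32.4 CPM and 32.2 and 27.7 CPM, overlapped between these types.

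The receptors Lgr5 and Tnfrsf19 were again low in the isthmus. Lgr5 had 29.0 and 56.6 CPM in neck cells (69 UMIs in 12 of 45 cells, 26.7%, exact 95% interval 14.6 to 41.9%), 6.81 and 26.6 CPM in the 21 chief-like cells and 2.99 and 1.77 CPM in isthmus-like cells, from 7 UMIs in 3 cells. The authors' annotation keeps an earlier name for most cells, and it had set 4 cells apart as an Lgr5+/Axin2+ stem cell class, of which 3 are now in the neck cluster and 1 in the isthmus-like cluster. The 3 held 31 of the 69 Lgr5 UMIs of the neck cluster and 22 of its Axin2 UMIs, and without them its Lgr5 level was 15.1 and 35.8 CPM. Parietal cells had 1.79 and 2.54 CPM. The thinned share of isthmus-like cells, 2.43%, did not exceed the 2.63% of parietal cells, and that of neck cells was 18.7 ± 5.32%. No pit cell of 153 held a UMI of Lgr5, which allows up to 1.96% of cells. Isthmus-like cells were 4.18 log2 units below neck cells (SE 0.54, adjusted p = 4.52e-05). Neck cells had more Lgr5 than chief-like cells in both pools, while chief cells had more than neck cells in dataset 2. This difference in dataset 1 did not pass with TMM scaling.

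Tnfrsf19 had 29.5 and 19.4 CPM in chief-like, 12.9 and 18.9 CPM in neck and 0.748 and 1.77 CPM in isthmus-like cells, at least 7.94-fold lower than in neck (adjusted p = 0.00161, but 0.0658 under DESeq2). Between chief-like and neck cells of dataset 1, a comparison chosen after seeing the data, 3 of the 10 genes were lower and 0 higher, beside 18.6% of 10163 genes (9.48% higher, 9.12% lower), with a median of -0.97, or -0.37 with Cd44, Stmn1 and Iqgap3 at their bounds, beside -0.06. Without TMM scaling the median of all genes moved there by -0.88, 7 of the 10 were lower and the share of calls that were higher went from 51.0% to 6.03%. Lgr4 was lower by 1.04 (SE 0.23, adjusted p = 0.00333) and Lrig1 by 2.06 (SE 0.26, adjusted p = 7.53e-06), and Cd44 was at least 12.6-fold lower (adjusted p = 1.33e-05), while Lgr5 gave -0.53 (SE 0.58, adjusted p = 0.602) and Tnfrsf19 1.47 (adjusted p = 0.0735).

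Cd44 was the gene whose order of isthmus and neck cells turned between the datasets. In dataset 1 neck cells had 124 and 203 CPM and isthmus-like cells 78.5 and 33.0 CPM, and the isthmus-like cells were lower by 1.62 log2 units (SE 0.28, adjusted p = 0.000271), where the isthmus of dataset 2 was higher by 1.33. The test of the difference between the datasets called Cd44 with 2.90 log2 units (SE 0.45, adjusted p = 0.00908), as 1 of the 10 genes, beside 0.157% of 12132 genes (0.124% higher, 0.0330% lower), with a median of 1.13 beside 0.00. Lrig1 with 0.78 and Stmn1 with 2.48 had an adjusted p of 0.0838. With the pool as a block both passed, at 0.0282 and 0.0471, and so they did under DESeq2 (0.0142 and 7.38e-05), without the filter, with the plate as the unit and without TMM scaling. For isthmus against pit cells edgeR called 0 of the 10 genes between the datasets, beside 1.87% of genes (0.470% higher, 1.40% lower), with 1 at an unadjusted p under 0.05 and 0 by DESeq2. Region, sort, protocol, primers and mice all differ between the datasets and cannot be told apart here.

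A few cells carried most of this Cd44. In the neck of dataset 1, 3 cells with 71, 53 and 40 UMIs held 63.1% of the 260 UMIs, and 1 isthmus-like cell held 62 of 161. Without the 3 cells the neck had 41.9 and 88.7 CPM and overlapped the isthmus-like cells. Of these 3 cells, 1 was in the earlier Lgr5+/Axin2+ class, and without that class the neck had 116 and 172 CPM. Neck cells with Lgr5 had 355 and 663 CPM of Cd44 (12 cells) and those without had 23.2 and 14.1 CPM (33 cells). Isthmus-like cells without Lgr5 had 34.6 and 30.2 CPM (50 cells), above the neck cells without Lgr5 in both pools. The thinned shares were 29.7 ± 4.42% of neck and 25.5 ± 3.03% of isthmus-like cells. The stromal markers detected in neck cells (4 of 6) summed to 3.22 and 7.77 CPM and the 1 of 6 leukocyte markers to 1.61 and 2.22 CPM, with Ptprc and Pdgfra at 0, where stromal-like cells had up to 619 CPM of Cd44. Their part in the result was not tested.

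The neck cells with Lgr5 in dataset 1 also had more Axin2, at 47.8 and 80.1 CPM against 9.27 and 12.52 CPM, and more Lrig1, at 249 and 290 CPM against 134 and 125 CPM. Olfm4, a secreted glycoprotein that accompanies Lgr5 in intestinal stem cells, had 1677 and 3927 CPM in them and 2.32 and 0 CPM in the others. In the neck cells of dataset 2 with Lgr5, 1 UMI of Olfm4 was found. Dataset 1 held antrum as well, and the authors' earlier names call 50 cells of its cluster 5-7 duodenum cells. Whether the neck cells with Lgr5 came from the corpus, the antrum or the duodenum was not tested. These cells were chosen by Lgr5, and their median depth of 37788 and 34579 UMIs was above the 28922 and 28137 of the others.

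In the antrum, pit cells carried Cd44 where those of the corpus hardly did. Antrum pre-pit cells had 34.6 and 35.1 CPM and antrum mature pit cells 9.01 and 7.59 CPM, against 2.86 and 3.39 CPM in corpus pre-pit and 1.10 and 0 CPM in corpus mature pit cells. The antrum level was higher in both kinds of pit cell and both pools, by 3.54 log2 units (SE 0.67, adjusted p = 0.00174), from 68 and 8 UMIs. Cd44 was 1 of the 10 genes called, where 9.26% of all genes were (5.49% higher, 3.76% lower), with a median of 0.05 beside 0.01. The stromal and leukocyte markers summed to at most 8.27 and 4.21 CPM in the antrum pit cells.

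**Figure D5:**
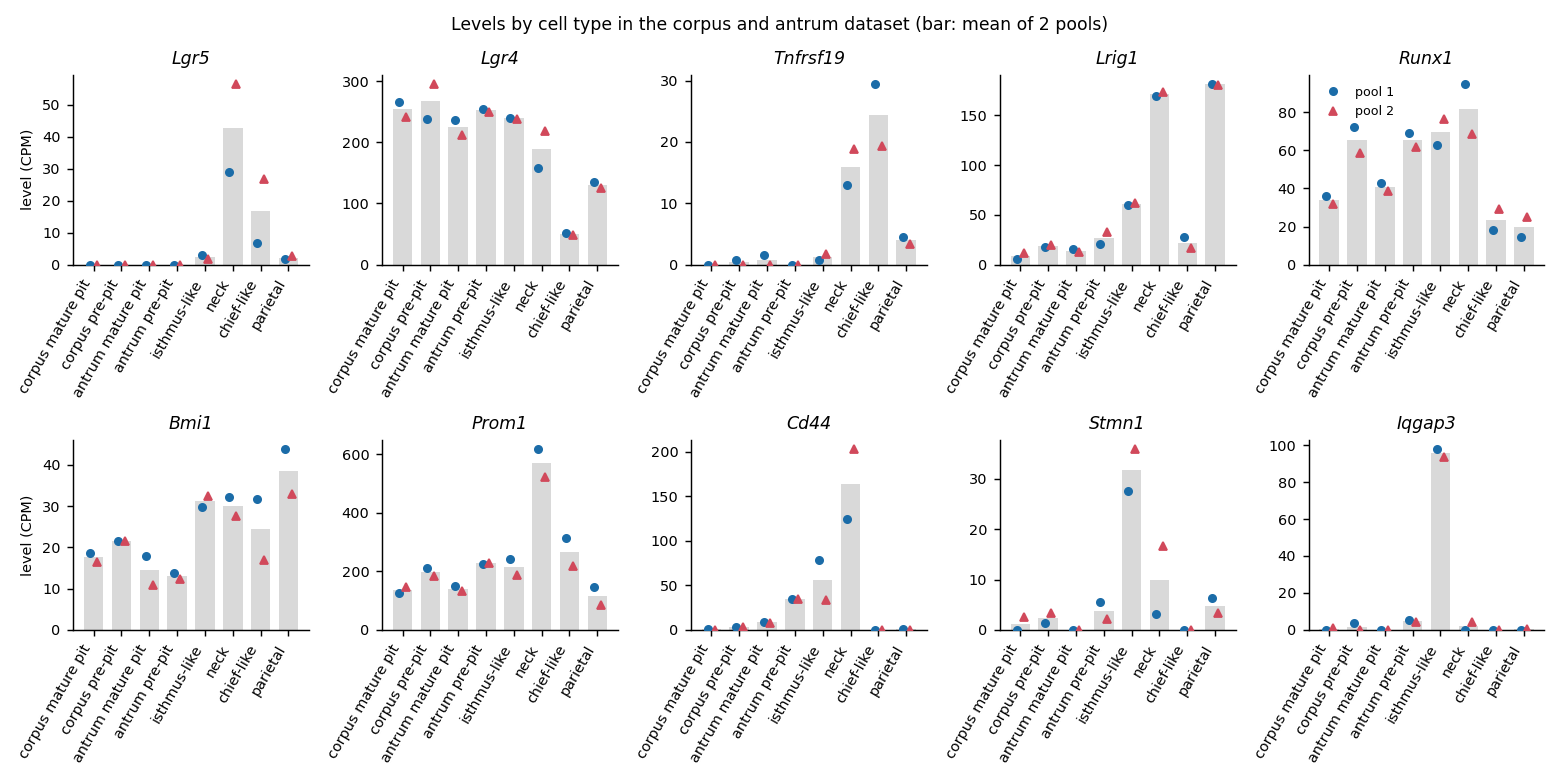
Level of each gene (vertical axis, CPM, each from 0) in the epithelial cell types of dataset 1. Bars are the mean of 2 pools, circles pool 1 and triangles pool 2; Cd44 and Lgr5 are highest in neck cells, with 124 and 203 CPM of Cd44, and Iqgap3 in isthmus-like cells.

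Other genes of the Wnt and R-spondin pathway were followed in a list of 19 genes, of which 12 could be tested in dataset 2. Between isthmus and neck cells 2 were higher and 6 lower, where 24.3% of all genes were higher and 26.4% lower, with a median of -0.43 beside -0.06 over all genes. Lower in the isthmus were the feedback inhibitors Axin2 (-1.98, SE 0.27, adjusted p = 3.6e-05), Nkd1 (-1.74), Znrf3 (-0.62) and Rnf43 (-0.65) and the transcription factors Sp5 (-1.61) and Tcf7 (-0.54), and higher were the receptors Fzd5 (0.54) and Lrp5 (0.47); Tcf7 did not pass without TMM scaling. In neck cluster 12 against the other neck clusters 6 were higher and 0 lower, among them Sp5 (2.85), Nkd1 (2.27) and Axin2 (1.57), beside 5.10% and 5.18% of all genes, with a median of 0.46 beside -0.01. Without TMM scaling 5 were higher and 2 lower there, and these 3 were still higher.

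In chief against neck cells 2 of the 12 Wnt genes were higher, Sp5 (3.02) and Axin2 (0.88), and 3 lower, beside 18.6% and 19.9% of all genes, but without TMM scaling 1 was higher and 8 lower, with Axin2 at 0.06. Isthmus against chief cells gave 4 higher and 6 lower, or 6 and 3 without TMM scaling, beside 29.5% and 25.9% of all genes. In isthmus against pit cells 5 were higher and 1 lower, or 6 and 0 without TMM scaling, beside 22.5% and 18.4% of all genes, and the median was 0.47, or -0.05 with genes at their bound, beside 0.04. Between isthmus-like and neck cells of dataset 1, 8 could be tested, where 16.2% of all genes were higher and 13.1% lower, and Axin2 (-3.50), Rnf43 (-1.53) and Znrf3 (-0.90) were lower and Fzd5 (1.01) was higher.

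A second list held 18 other genes that have been reported as markers of gastric or intestinal stem cells. In isthmus against neck cells 17 were tested, 3 were higher and 7 lower, beside 24.3% and 26.4% of all genes, with a median of -0.41 beside -0.06 over all genes. Lower were Bhlha15 (-3.00), a transcription factor of secretory cells, Smoc2 (-2.95), an intestinal stem cell marker, Hopx (-2.81), the water channel Aqp5 (-1.57), Tert (-1.29), Sox9 (-1.06) and Sox2 (-0.39). Higher were the gastrin receptor Cckbr (1.65), the peptide Tff2 (1.32) and the transporter Abcg2 (0.67). Neck cluster 12 was higher in Smoc2 (3.92), Bhlha15 (1.45), Aqp5 (1.31) and Ascl2 (1.14) and lower in Tff2 (-1.17). In dataset 1, 7 of 12 tested were lower in isthmus-like than in neck cells and 0 higher, beside 13.1% and 16.2% of all genes. Their median was -2.23 beside 0.04 over all genes. Among the 7 were Olfm4 (-5.33), Smoc2 (-2.69), Ascl2 (-2.57) and Sox9 (-1.90).

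The third list held 16 proliferation genes, 6 of which had also served to name the isthmus. All 16 were higher in isthmus than in neck, chief, pit and parietal cells, where 24.3%, 29.5%, 22.5% and 36.7% of all genes were. Their medians were 4.66, 5.17 (4.91 with genes at their bound), 3.96 and 4.93, beside -0.06, 0.06, 0.04 and 0.05 over all genes, and the 6 genes that named the cluster fix part of this outcome. In clusters 5 and 6 against 3, 9 and 11 they were higher in 15 of 16 cases, beside 17.3% of all genes. Their median there was 2.61 beside -0.02 over all genes, and the split by cell cycle phase fixes part of this outcome. In dataset 1, 15 of 16 were higher in isthmus-like than in neck cells.

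The genes nearest to the others over the 14 epithelial clusters were found in the same way. Stmn1 was nearest to Spc24, Pclaf and Anapc15 (0.97 each), and its r with Iqgap3 was 0.91. Lgr5 was nearest to Fes, Nupr1 and Cblif (0.91, 0.90 and 0.89) and Tnfrsf19 to Sntb1, Gnmt and Pdia2 (0.94, 0.90 and 0.88). Lgr4 was nearest to Cd2ap, Adam10 and Ctnna1 (0.98 each), Lrig1 to Fam234b, Ano6 and Ggct (0.96, 0.96 and 0.95) and Runx1 to Krt18, Khnyn and Cnksr1 (0.97, 0.97 and 0.97). Bmi1 was nearest to Atp13a3, Pcmt1 and Cadm1 (0.91, 0.90 and 0.90), Prom1 to 2510009E07Rik, 5033406O09Rik and Prrc1 (0.99, 0.99 and 0.98) and Cd44 to Nectin1, Mlec and Sap30bp (0.93, 0.93 and 0.92). The clusters share 2 pools and their plates, so these are descriptions without a test.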

How the data were processed

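Gastric cells of 10-week-old mice were sorted into 384-well plates and sequenced by Quartz-Seq2. The authors trimmed, aligned and counted the reads with bcl2fastq 2.20.0.422, FASTX-Toolkit, STAR and Drop-seq tools on GRCm39 with Gencode gene models, kept cells with at least 2500 detected genes and clustered them with Seurat. The deposited counts are whole UMI counts per gene and kept cell, with no normalization, and the deposited annotation gives each cell's cluster, pool and phase. It also holds the percent of UMIs from mitochondrial genes and the S and G2M scores that the authors computed with Seurat, from which the phase was called. Every kept cell of both datasets had the same UMI total in its plate's table as in the combined one. Whether counting used the strand is not given in the sources used here. Of the 10 genes, 8 overlap another gene on the opposite strand, and their reads cannot be told apart without it; Bmi1 and Iqgap3 do not, and Stmn1 also overlaps a gene on its own strand.

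UMIs were summed per cell type (or cluster) and pool. Sums were scaled by TMM, filtered by filterByExpr and tested with edgeR 4.0.16 (glmQLFit and glmQLFTest, R 4.3.3). Each dataset had 1 model that held its epithelial types. Separate models held the 14 epithelial clusters of dataset 2, the types of dataset 1 with chief-like cells, and both datasets for the difference between them. The Benjamini-Hochberg adjustment ran over the genes tested, with a threshold of 0.05. Nothing in the labels names mice within a pool, so p-values rest on the spread between the pools of each type or cluster. The main models held no term for the pool and treated sums of the same pool as independent. The model of clusters held 28 such sums from 2 pools, so its p-values may be too small. A fold against a group with at most 3 UMIs in every sum is given as a bound computed against 3 UMIs per sum. Shares of cells were thinned to 10000 UMIs per cell, leaving out shallower cells (9 neck, 6 isthmus, 4 mature pit, 1 parietal, 0 pre-pit and 0 chief cells of dataset 2). Clusters without a name from the authors were named from marker genes. No doublet caller was run, since single cells were gated at the sort. Plate and well together gave every cell its own name; well barcodes recur between plates by design, 145 of 296 in dataset 1 and all 384 in dataset 2. Pools pair the samples: deviations of the pools correlated with a median of 0.132 over 15 pairs of types in dataset 2 and 0.0245 over 21 pairs in dataset 1. Scripts were tested on simulated data. The genes named are the 10 markers, the 3 genes most like each over clusters, and called genes of 3 lists. The 10 genes and the lists were chosen with earlier results of these data known.

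Alternatives were DESeq2 1.42.0, its size factors in edgeR, no filter on low counts, the pool as a replicate block, the plate as the unit, only the types compared in the fit, leaving out each pool, and thinning to 5000 or 20000 UMIs. Scaling by library size alone, and the comparison of chief-like with neck cells of dataset 1, were added after seeing the data, as were levels of dataset 1 without the cells of an earlier class or the 3 neck cells with most Cd44.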

Additional observations from a re-analysis of the deposited data

Results flagged for a closer look

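On 1 plate of pool T the Lgr5 level of isthmus cells was 3.2348 CPM, from 18 UMIs in 140 cells, while the other plates of the pool lay between 0 and 0.827 CPM. The gap to the nearest plate was 0.744 of the whole range. Of 40 groups of 6 plates checked over the 10 genes, 1 had such a plate, and chance flags about 1 in 20. Without that plate the isthmus level of pool T was 0.334 CPM from 8 UMIs in 578 cells, and the neck level of pool T was 3.26 CPM.

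The Cd44 difference between isthmus and neck cells differed between the datasets by 2.897 log2 units (SE 0.45, adjusted p = 0.00908 by edgeR), with isthmus higher than neck in both pools of dataset 2 and lower in both pools of dataset 1. Among cells with no Lgr5 UMI the isthmus-like level of dataset 1 was above the neck level in both pools, at 34.6 and 30.2 CPM against 23.2 and 14.1 CPM.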

How the results depend on the processing

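Of 64 values called for the 10 genes, 64 kept their sign in every setting that gave them a value. Past the threshold in every setting that tested them were 56. A setting with no value for a gene was left out of these counts. With the plate as the unit this included called genes of isthmus-like against neck cells, where 4 of the 10 were called and not 7. DESeq2 lost 3 calls (Tnfrsf19 and Stmn1 in isthmus-like against neck cells, Lgr5 in isthmus-like against corpus pit cells of dataset 1), no filter lost Prom1 in neck cluster 12, and library size alone lost the rest, as named in the report, with Lgr4 against corpus pit cells of dataset 1 (-0.12, adjusted p = 0.460). Bmi1, not called with TMM scaling, turned sign and was called with library size alone, at 0.70 in isthmus against chief and -0.56 in chief against neck cells. Beyond these, 42 of 1210 alternative values passed that did not in the fit reported. Iqgap3, higher in chief than in neck cells, passed under DESeq2 (adjusted p = 0.00897). It also passed in edgeR without the filter (0.047) and with the plate as the unit (0.0415). With library size alone the values that passed included Prom1, Cd44 and Stmn1, all lower in chief than in neck cells. Lgr4 was then lower in neck cluster 12 than in the other neck clusters. In dataset 1, Runx1 and Bmi1 were then higher in isthmus-like than in corpus pit cells. Lgr5, Runx1, Prom1 and Stmn1 were then lower in chief-like than in neck cells of dataset 1.

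Counts of calls moved by over 1.5 times or changed as follows, and the cause was not tested. In chief against neck cells library size alone gave 9803 genes (5355 with TMM) and 8 of the 10, in neck cluster 12 it gave 2891 genes (1328), in chief-like against neck cells 4845 (1890) and 7 of the 10, and in the difference between datasets for isthmus against neck 45 (19) and 3 of the 10. The replicate block, with pools as pairs, gave 1 of the 10 in mature against pre-pit cells, and between datasets 66 genes and 3 of the 10 for neck and 388 genes (227) for pit; it passed Prom1 in mature against pre-pit cells, Lgr5 (adjusted p = 0.0146) and Prom1 in isthmus against pit cells, Lgr4 against parietal cells, and Lrig1 and Stmn1 between datasets for neck. With the plate as the unit, mature against pre-pit cells gave 2594 genes (1439) and 1 of the 10, isthmus-like against neck 4 of the 10 (7), and the datasets differed in 148 genes and 3 of the 10 for neck and in 980 genes for pit. DESeq2 gave 1458 genes (2998) in isthmus-like against neck, 2408 (4166) against corpus pit, 548 (947) in antrum against corpus pit, and between datasets 103 genes and 3 of the 10 for neck and 495 for pit. Without the filter chief-like against neck cells gave 5 of the 10 (3), and between datasets 256 genes and 3 of the 10 for neck and 475 for pit.

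With 2 pools a dataset, leaving out a pool gives values with no test. Low counts limit Lgr5 in the isthmus (32 UMIs) and dataset 1, where 3 neck cells held 63.1% of the Cd44 UMIs of their cluster.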
